A study of Mus musculus with 20 samples.

Results

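The interleukin 1 (IL-1) family genes described here are 10 of the 45777 genes listed for the mouse uterus, taken by gene symbol: the ligands Il1a, Il1b, Il18 and Il33, the secreted inhibitors Il1rn and Il18bp, and the receptor chains Il1r1, Il1r2, Il1rl1 and Il1rap. RNA of a single uterine horn per mouse was sequenced from 20 wild-type B6D2F1 females of 8 to 12 weeks. It was collected at 18:00 on day 3.5 after mating, shortly before embryos attach. The 4 groups held 5 mice each: untreated controls, mice given low-dose RU486 (the IF group, for implantation failure), mice given RU486 and peripheral blood mononuclear cells (the PBMC group), and mice given RU486 and PBMCs that had been cultured with human chorionic gonadotropin (the PBMC-hCG group). RU486 blocks the progesterone and glucocorticoid receptors and was injected under the skin on the morning of day 3.5 in all groups but the control, and PBMCs, taken from other mice that were not pregnant, were placed in the uterus on day 1.5. Every RU486 group therefore differed from the control in the drug, and both cell groups differed from the IF group in the cells and in the intrauterine procedure, since mice given medium without cells were not analysed here.

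IL-1 alpha and IL-1 beta bind the type 1 receptor, Il1r1, which then recruits the accessory chain Il1rap and signals through MyD88 to NF-kB. Signalling is held back by the antagonist Il1rn, which occupies Il1r1 without recruiting the accessory chain, and by Il1r2, a decoy receptor that binds the ligands and lacks the signalling domain. IL-33 signals through Il1rl1, also called ST2, with the same accessory chain, and IL-18 has receptors of its own and is neutralized by Il18bp. In the uterus IL-1 is known as an inducer of prostaglandin synthesis in stromal cells, and its receptors and ligands have been studied in exchanges between embryo and endometrium.

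Values are TPM, a measure of transcript abundance that corrects for gene length and is scaled to a fixed total, so levels can be compared between genes and depth is unknown. The level of all members was low to moderate. Over the 20 mice, Il1r1 had the highest median of 22.7 TPM, followed by Il18bp at 10.6 TPM, Il1r2 at 9.40 TPM, Il33 at 8.81 TPM, Il18 at 5.94 TPM and Il1rap at 5.81 TPM. The least abundant were Il1rn at 2.77 TPM, Il1b at 2.39 TPM, Il1rl1 at 2.33 TPM and Il1a at 0.573 TPM. The decoy and the signalling receptor were thus listed well above either of their agonists. Of the 10 members, 9 were above 0 TPM in every library and were tested among 18706 such genes, whereas Il1a was listed at 0 in 3 of the 5 PBMC-hCG libraries and was compared separately.

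All 6 uterus defining markers, among them Esr1, Pgr and Hoxa10, were above 0 TPM in every library. The library of control replicate 2 stood apart. It correlated with the other controls at a mean r of 0.963, against 0.977 to 0.983 for the other 4, and its summed stromal markers were 6195 TPM, below the other 19 libraries. Some results of Il1rl1, Il33, Il1b and Il1r2 are also given without it.

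In the mouse genome (GRCm38.p6) 3 of the receptor genes lie close together on chromosome 1 on the forward strand, Il1r2 at chr1:40084692-40125230, Il1r1 at chr1:40222480-40316201 and Il1rl1 at chr1:40404864-40465418. Il1a at chr2:129299609-129310186 and Il1b at chr2:129364569-129371164 are neighbours on the reverse strand of chromosome 2, where Il1rn lies apart at chr2:24336860-24351491. The accessory chain Il1rap, at chr16:26581509-26730128, the ligands Il18, at chr9:50554700-50581841, and Il33, at chr19:29925113-29960718, and Il18bp, at chr7:102015074-102018232, are on chromosomes of their own. A total of 6 members, Il1a, Il1b, Il1r2, Il18, Il18bp and Il1rap, overlap an annotated gene on the opposite strand. The library kit marked strand, but whether the counting used it is not stated in the sources used here, so reads of these pairs may not have been told apart. In addition, Il1r1 and Il1r2 overlap an annotated gene on the same strand, by 6480 and 3071 bases, where strand cannot separate the reads.

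The start-site windows of the 3 members whose levels differed between PBMC-hCG and IF uteri are shown, from 250 bases before to 50 bases after the RefSeq start, 5′ to 3′ on the gene's strand. The windows are chr2:129309923-129310222 for Il1a, chr1:40085843-40086142 for Il1r2 and chr16:26581455-26581754 for Il1rap in GRCm38.p6, and capitals mark matches to the motifs searched.
Il1a: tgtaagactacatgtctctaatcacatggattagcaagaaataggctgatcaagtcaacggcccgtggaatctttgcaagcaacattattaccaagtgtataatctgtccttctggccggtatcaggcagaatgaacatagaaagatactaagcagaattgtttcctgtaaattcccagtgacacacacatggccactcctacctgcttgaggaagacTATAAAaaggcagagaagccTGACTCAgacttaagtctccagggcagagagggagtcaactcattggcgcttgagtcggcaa
Il1r2: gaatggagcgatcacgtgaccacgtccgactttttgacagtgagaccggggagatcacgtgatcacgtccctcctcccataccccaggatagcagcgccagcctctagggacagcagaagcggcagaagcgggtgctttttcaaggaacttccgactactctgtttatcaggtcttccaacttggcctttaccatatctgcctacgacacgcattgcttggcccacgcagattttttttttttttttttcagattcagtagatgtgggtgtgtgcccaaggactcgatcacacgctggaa
Il1rap: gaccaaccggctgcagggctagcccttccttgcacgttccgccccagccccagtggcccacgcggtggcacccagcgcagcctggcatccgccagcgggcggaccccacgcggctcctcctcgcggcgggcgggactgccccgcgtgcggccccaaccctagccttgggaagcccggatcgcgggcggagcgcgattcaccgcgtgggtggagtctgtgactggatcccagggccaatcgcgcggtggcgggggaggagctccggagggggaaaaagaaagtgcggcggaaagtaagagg
The 15 windows of the 10 members were searched on both strands for 4 motifs. The set of motifs and the form of the NF-kB consensus were settled after the matches of a first set had been seen. The TATA motif TATAAA was in 6 of the 15, against 13.6% of all 32851 windows, including those of Il1a and Il1b. The AP-1 motif TGANTCA was in 2, one each of Il1a and Il1rn, against 7.81% of all windows. The NF-kB consensus was in 1, the downstream of the 2 windows of Il1r1, against 4.51%. The steroid receptor palindrome ACANNNTGT was in 1 window of Il1rl1, against 6.85%. No match overlapped another in the Il1a window, where the TATA match starts 32 bases and the AP-1 match 12 bases before the start. The windows of Il1r2 and Il1rap held no match to these letters.

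The comparison of the IF with the control group asked what RU486 alone did to the family on the eve of implantation. None of the 9 tested members passed the test, while 21.9% of all tested genes did. A raw p-value under 0.05 was found for 1 member, Il1rl1, against 33.9% of all genes. The median difference over the members was 0.05 on the log2 scale against 0.02 over all genes. Both agonists and the decoy receptor had higher means in the IF group, with a wide spread between mice. Il1b, made mainly by activated myeloid cells, stood at 2.89, 0.591, 0.637, 3.12 and 2.31 TPM in the control mice and at 3.75, 2.27, 2.96, 1.57 and 4.70 TPM in the IF mice. The groups overlapped, with controls 2 and 3 below every IF mouse. The log2 fold change was 0.85 (SE 0.47, adjusted p = 0.22 by limma), and it was 0.54 without control replicate 2. In RNA of mixed uterine tissue, a smaller number of cells of a type and less RNA per cell cannot be told apart.

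Il1a, an agonist that cells hold in reserve and release on damage, stood at 0.370, 0.446, 0.211, 0.213 and 1.09 TPM in the control mice and at 0.941, 0.981, 0.709, 0.495 and 2.02 TPM in the IF mice. The IF replicate 5 was highest, and of the controls replicate 5 alone reached into the IF range. The difference of 1.05 on the log2(TPM + 0.1) scale did not pass the two-sided exact permutation test (p = 0.0714, 0.107 after adjustment over 6 comparisons). Over the 10 comparisons with a mouse left out, the exact permutation p, not adjusted, ran from 0.0159 to 0.127. Without control replicate 5 the difference was 1.37 (exact permutation p = 0.0159) and without IF replicate 4 it was 1.25 (exact permutation p = 0.0476).

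**Figure D1:**
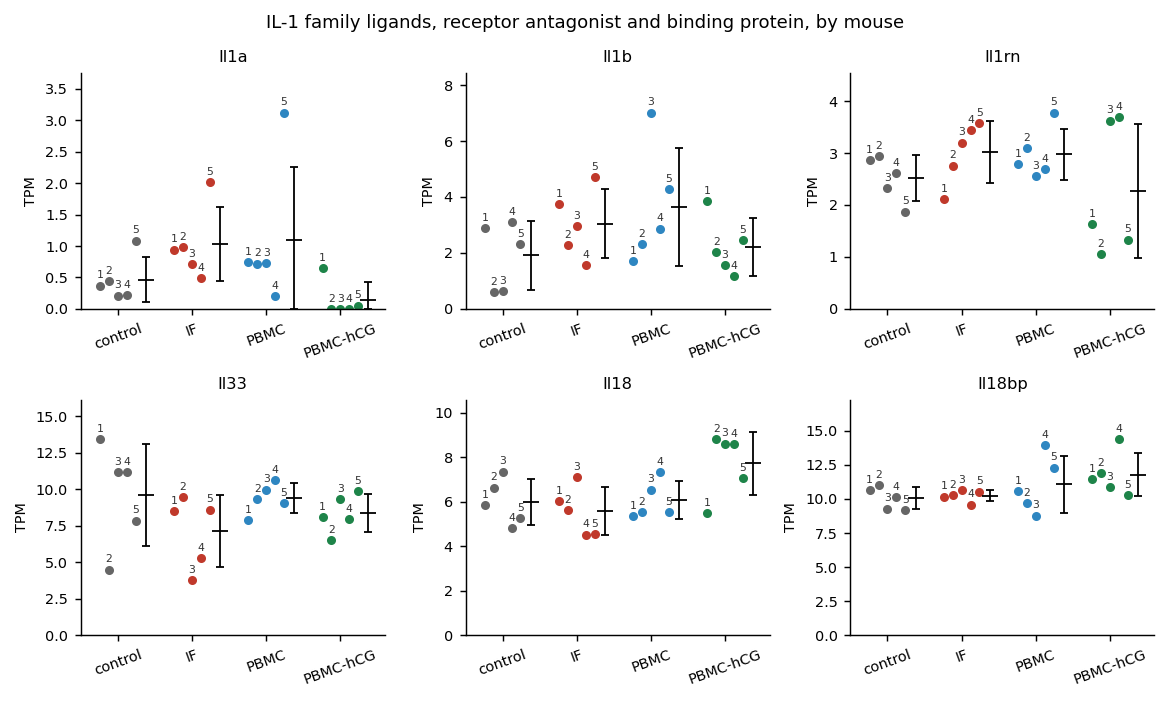
TPM (vertical axis) of 4 ligands, the receptor antagonist Il1rn and the binding protein Il18bp in each mouse of the 4 groups (horizontal axis). Points carry the replicate number, and the bar beside each group is the mean with SD, cut at 0. Il1a was listed at 0 in PBMC-hCG replicates 2, 3 and 4, whereas Il18 was highest in PBMC-hCG replicates 2, 3 and 4.

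Il1rl1, the IL-33 receptor carried by mast cells, regulatory T cells and innate lymphoid cells, was the member nearest to the threshold in the IF group. It stood at 2.17, 2.92, 1.75, 1.67 and 1.47 TPM in the control mice and at 2.40, 2.85, 3.10, 3.18 and 2.22 TPM in the IF mice, and 4 of the 5 controls lay below every IF mouse. The exception was control replicate 2. The log2 fold change was 0.47 (SE 0.17, adjusted p = 0.0549), and without control replicate 2 it was 0.61 (adjusted p = 0.00643). Leaving out that mouse also raised the share of all tested genes that passed, from 21.9% to 26.8%. Over the 10 fits with a mouse left out the adjusted p reached 0.136. Of the mast cell, basophil and ILC2 markers 0 of 8 tested passed, with Il13 at 0 in every library, and their sum ran from 67.8 to 122 TPM in the control and from 57.7 to 101 TPM in the IF group.

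Its ligand Il33, an alarmin of endothelial and other barrier cells, stood at 13.4, 4.49, 11.2, 11.2 and 7.85 TPM in the control mice and at 8.49, 9.46, 3.79, 5.28 and 8.60 TPM in the IF mice. The ranges overlapped, and the lowest control was again replicate 2. The log2 fold change of -0.41 (SE 0.26) did not pass the test (adjusted p = 0.286), and it was -0.66 without control replicate 2 (adjusted p = 0.035). In the fit without that mouse 26.8% of all tested genes passed, against 21.9% with it. With other mice left out the adjusted p reached 0.599. Beside it, 7 of 9 endothelial markers were called higher in the IF group, with sums of 596 to 677 TPM against 433.5 to 519 TPM in the control, and their part in the level of Il33 was not tested.

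Il1r2 stood at 8.10, 2.39, 6.01, 8.78 and 10.9 TPM in the control mice and at 16.0, 13.4, 5.09, 16.0 and 16.9 TPM in the IF mice. Of the 5 IF mice, 4 lay above every control, and IF replicate 3 lay among them. The log2 fold change was 0.93 (SE 0.50, adjusted p = 0.204), and it was 0.58 without control replicate 2. The other members differed little in level between these groups. The mean of Il1r1 was 29.3 ± 12.8 TPM in controls and 30.3 ± 12.9 TPM under RU486 alone (SD, 5 mice each), and that of Il18bp was 10.1 ± 0.807 TPM and 10.3 ± 0.412 TPM.

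The comparison of the PBMC with the IF group asked what untreated cells changed. None of the 9 members passed the limma test, nor did any other gene (0% of all tested), and 0 members had a raw p-value under 0.05 against 6.79% of all genes. The widest shift was in Il33, which stood at 7.90, 9.31, 9.96, 10.6 and 9.03 TPM in the PBMC mice, with a log2 fold change against IF of 0.46 (SE 0.26, 95% interval -0.09 to 1.01, adjusted p = 0.758). Of the PBMC mice, 2 lay above the highest IF mouse. For Il1r2 the 95% interval ran from -1.15 to 0.95 and for Il1r1 from -0.60 to 0.58, so differences of about that size could not be seen with 5 mice. Il1rap was 6.05 ± 0.896 TPM in the PBMC group, with an interval from -0.12 to 0.35.

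In the PBMC mice Il1b stood at 1.70, 2.32, 7.02, 2.87 and 4.28 TPM, with replicate 3 highest of all 20 mice. Against the control its log2 fold change was 1.02 (SE 0.47, adjusted p = 0.145), and it was 0.71 without control replicate 2. No member passed in that comparison, where 19.5% of all tested genes did. Il1b was the 1 member with a raw p-value under 0.05, against 31.6% of all genes. Il1r2 had a log2 fold change of 0.83 against the control (SE 0.50, adjusted p = 0.273), and of 0.48 without control replicate 2. Il1a stood at 0.743, 0.721, 0.724, 0.199 and 3.12 TPM in the PBMC mice, where replicate 5 alone was above 1 TPM. The difference from the IF group did not pass the exact permutation test (p = 0.802).

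The comparison of the PBMC-hCG with the IF group asked what cells cultured with hCG changed in RU486-treated uteri. Among the members, Il1r2 and Il1a fell and Il1rap rose, while Il1r1 and Il18 stayed just outside the threshold. Of the 9 tested members, 2 passed, 1 in each direction, where 13.6% of all tested genes passed, 7.61% higher and 5.99% lower. The median over the members was -0.06 on the log2 scale against 0.05 over all genes.

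Il1r2, the decoy, stood at 13.4, 2.83, 1.76, 2.13 and 3.88 TPM in the PBMC-hCG mice against 16.0, 13.4, 5.09, 16.0 and 16.9 TPM in the IF mice. In all, 4 PBMC-hCG mice were below every IF mouse and replicate 1 was within the IF range. Means were 4.79 ± 4.86 TPM and 13.5 ± 4.87 TPM (SD, n = 5 each). The fitted fall, between means of log2(TPM + 0.1), was 3.43-fold (log2 fold change -1.78, SE 0.50, adjusted p = 0.0347). It is the RNA level of the whole gene, and forms of the protein shed from cells were not measured.

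Il1a was listed at 0.652, 0, 0, 0 and 0.0532 TPM in the PBMC-hCG mice against 0.941, 0.981, 0.709, 0.495 and 2.02 TPM in the IF mice. Replicate 1 alone reached the lower part of the IF range. The difference was -2.66 on the log2(TPM + 0.1) scale (two-sided exact permutation p = 0.0159, 0.0476 after adjustment over 6 comparisons), where the smallest p that all arrangements of 5 against 5 mice allow is 0.00794. Its size rests on the pseudocount, since it was -4.80 with 0.01 and -0.82 with 1 added to the TPM. Genes used by every cell, such as Actb and Gapdh, were far above 0 in all libraries.

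Il1rap, which both IL-1 and IL-33 receptors need for signalling, stood at 6.32, 8.46, 7.48, 6.73 and 7.31 TPM in the PBMC-hCG mice against 5.59, 5.47, 6.42, 5.37 and 4.89 TPM in the IF mice. Of the 5 PBMC-hCG mice, 4 were above every IF mouse, and replicate 1 lay just under the highest of them. The fitted rise was 1.30-fold (log2 fold change 0.38, SE 0.11, adjusted p = 0.039).

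These calls depended on single mice and on the filter on low values. Tested without that filter, over all genes not at 0 in every library, both had the same fold changes but did not pass (adjusted p = 0.0582 for Il1r2 and 0.0564 for Il1rap). In that fit 2.65% of all genes passed, against 13.6% with the filter. Without IF replicate 2, 4 or 5 or without PBMC-hCG replicate 2, 3, 4 or 5, neither member passed, and the adjusted p-values in these fits ran from 0.0641 to 0.11 for Il1r2 and from 0.0707 to 0.123 for Il1rap. The log2 fold changes over all 10 fits with a mouse left out stayed between -2.25 and -1.54 for Il1r2 and between 0.32 and 0.43 for Il1rap. In the same 7 fits at most 0.182% of all tested genes passed, so the calls of the comparison as a whole were also nearly all lost. Without IF replicate 3 or without PBMC-hCG replicate 1, 4 members passed, Il1r1 and Il18 being added, where 27.1% and 22.3% of all tested genes passed.

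**Figure D2:**
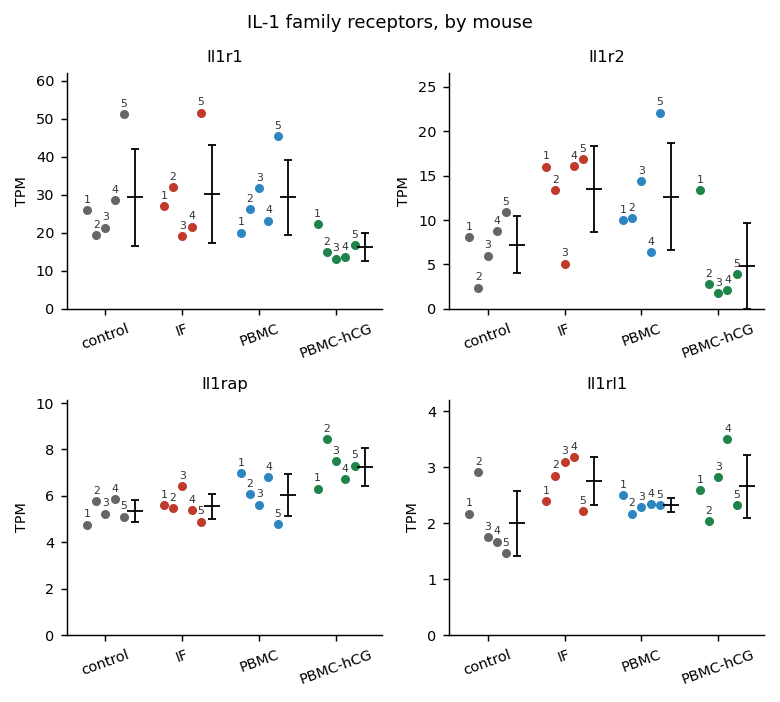
TPM (vertical axis) of the 4 receptor genes in each mouse of the 4 groups (horizontal axis). Points carry the replicate number and the bars give the mean with SD. Il1r1 and Il1r2 were highest in replicate 5 of the control, IF and PBMC groups and in replicate 1 of the PBMC-hCG group.

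Il1r1, the signalling receptor, stood at 22.3, 14.9, 13.2, 13.6 and 16.9 TPM in the PBMC-hCG mice against 27.0, 32.0, 19.1, 21.6 and 51.6 TPM in the IF mice. Of the PBMC-hCG mice, 4 lay below every IF mouse. The log2 fold change was -0.83 (SE 0.28) with an adjusted p of 0.0528, just outside the threshold, and without PBMC-hCG replicate 1 it was -0.96 (adjusted p = 0.0302). Over the 10 fits with a mouse left out the adjusted p ran from 0.0224 to 0.172.

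Il18, which is made by epithelium and macrophages, stood at 5.50, 8.83, 8.61, 8.58 and 7.07 TPM against 6.04, 5.61, 7.10, 4.53 and 4.55 TPM in the IF mice. Of the PBMC-hCG mice, 3 were above every IF mouse, replicate 5 lay just under the highest of them and replicate 1 lay within their range. The log2 fold change was 0.46 (SE 0.16, adjusted p = 0.0552), and without PBMC-hCG replicate 1 it was 0.58 (adjusted p = 0.0172). Over the 10 fits with a mouse left out the adjusted p reached 0.163. Of 10 epithelial markers 1, Krt8, was higher in this comparison, with sums of 1070 to 1431 TPM in the IF and 1194 to 1580 TPM in the PBMC-hCG group, and its part in the level of Il18 was not tested.

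Il1rn was spread over the widest range in the PBMC-hCG group, at 1.64, 1.06, 3.63, 3.69 and 1.33 TPM, against 2.12, 2.76, 3.20, 3.44 and 3.58 TPM in the IF mice. Replicates 3 and 4 were above every IF mouse and the other 3 were below every IF mouse. The log2 fold change was -0.55 (SE 0.28, adjusted p = 0.163). Il1b stood at 3.86, 2.02, 1.56, 1.18 and 2.46 TPM in the PBMC-hCG mice, within or under the IF range, with a log2 fold change of -0.46 (SE 0.47, adjusted p = 0.514). The binding protein Il18bp was 11.8 ± 1.59 TPM and the alarmin pair Il33 and Il1rl1 was 8.34 ± 1.30 TPM and 2.66 ± 0.559 TPM in the PBMC-hCG group (SD, n = 5), and none of these passed the test against IF.

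Markers of blood cells were examined beside these differences. None of the 14 myeloid, 6 tested neutrophil or 14 tested lymphocyte markers was called between PBMC-hCG and IF uteri. The myeloid sum ran from 1246 to 1429 TPM in the IF and from 1254 to 1749 TPM in the PBMC-hCG group, and the neutrophil sum from 138 to 226 TPM and from 96.5 to 372 TPM, with Stfa2l1 at 0 in every library. Of 5 tested red blood cell genes, Hba-a2 and Hbb-bs, which have near-identical copies, were called lower, and the sum of 6 was 640.0 to 1802 TPM in the IF and 342 to 878 TPM in the PBMC-hCG group. The smooth muscle sum was 6298 to 7765 TPM and 5072 to 6397 TPM, with 0 of 8 genes called. Of 9 endothelial markers 1, Emcn, was called higher (adjusted p = 0.0287), with sums of 596 to 677 TPM in the IF and 665 to 769 TPM in the PBMC-hCG group, and of 10 stromal markers 1, Pdgfra, was called higher (adjusted p = 0.0403), with sums of 10638 to 12740 and 11204 to 12936 TPM. The part of blood, muscle, endothelial and stromal content in the differences of Il1r2, Il1a and Il1rap was not tested.

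**Figure D3:**
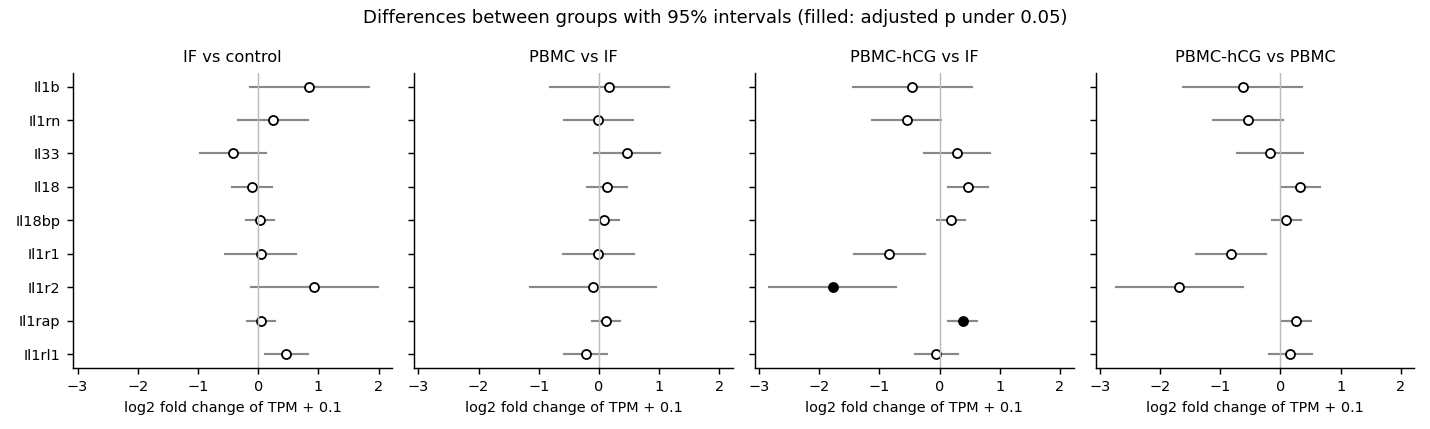
Log2 fold changes of TPM + 0.1 (horizontal axis) of the 9 tested members in 4 comparisons, with 95% intervals from limma. Filled points had an adjusted p-value under 0.05 over all 18706 tested genes: Il1r2 and Il1rap between PBMC-hCG and IF, and none between IF and control, PBMC and IF, or PBMC-hCG and PBMC.

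Set against PBMCs cultured without it, the PBMC-hCG mice addressed what hCG in the culture added. An action of hCG on the cells and one of hCG carried into the uterus with them cannot be told apart. None of the 9 members passed the limma test, where 0.0107% of all tested genes did. Il1r2 had a log2 fold change of -1.68 (SE 0.50, 95% interval -2.73 to -0.63, adjusted p = 0.266). The PBMC mice stood at 10.03, 10.2, 14.4, 6.43 and 22.1 TPM, and 4 PBMC-hCG mice lay below all of them. Il1r1 had a log2 fold change of -0.82 (SE 0.28, adjusted p = 0.271), Il1rap of 0.27 (SE 0.11, adjusted p = 0.289) and Il18 of 0.33 (SE 0.16, adjusted p = 0.309). For Il1b it was -0.63 (SE 0.47, adjusted p = 0.474) and for Il1rn -0.54 (SE 0.28, adjusted p = 0.326). Over the members, 4 had a raw p-value under 0.05, against 16.2% of all genes.

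Il1a was lower than in the PBMC group by 2.44 on the log2(TPM + 0.1) scale (difference -2.44, two-sided exact permutation p = 0.0159, 0.0476 after adjustment over 6 comparisons). The PBMC values ran from 0.199 to 3.12 TPM, and PBMC-hCG replicate 1 lay within that range. In the fit across all genes without the filter on low values, added after the data were seen, Il1a passed between PBMC-hCG and IF (adjusted p = 0.0461) and did not pass between PBMC-hCG and PBMC (adjusted p = 0.309). The comparisons with IF, PBMC and control share the PBMC-hCG mice and are not independent of each other.

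Against the control group, which had no drug and no cells, the PBMC-hCG uteri had higher Il1rap and lower Il1r1. Of the 9 members, 2 passed, 1 in each direction, where 31.8% of all tested genes did, 20.2% higher and 11.6% lower. Il1rap had a log2 fold change of 0.43 (SE 0.11, adjusted p = 0.0072) and was the only member whose 2 groups did not overlap, which 18.3% of all genes did not. Its control values were 4.76, 5.77, 5.24, 5.86 and 5.11 TPM, all below the lowest PBMC-hCG mouse, and it passed with each mouse left out in turn (adjusted p at most 0.025).

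Il1r1 was lower in PBMC-hCG than in control uteri with a log2 fold change of -0.79 (SE 0.28, adjusted p = 0.0377). The control mice stood at 26.0, 19.4, 21.4, 28.6 and 51.2 TPM, 4 of the 5 PBMC-hCG mice were below all of them, and replicate 1 was above the lowest 2. The call was lost without control replicate 1, 4 or 5 or PBMC-hCG replicate 2, 3, 4 or 5, with adjusted p-values of 0.0557 to 0.119. Of 8 smooth muscle markers, 5 were also called lower in this comparison, with sums of 6250 to 11531 TPM in the control group, and their part in the level of Il1r1 was not tested.

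Il1r2 did not differ in the test between PBMC-hCG and control (log2 fold change -0.85, SE 0.50, adjusted p = 0.211). Without PBMC-hCG replicate 1 it was -1.32 (adjusted p = 0.0273), and over the 10 fits with a mouse left out the adjusted p reached 0.422. Il18 had a log2 fold change of 0.36 (SE 0.16, adjusted p = 0.0915) and Il1rl1 of 0.41 (SE 0.17, adjusted p = 0.0712). Il18 passed without PBMC-hCG replicate 1, at 0.47 (adjusted p = 0.0238), and Il1rl1 passed without control replicate 2, at 0.55 (adjusted p = 0.0084), or without PBMC-hCG replicate 2, at 0.50 (adjusted p = 0.0434). Of all tested genes, 32.1%, 40.2% and 26.3% passed in these fits, in that order, against 31.8% with all mice. With other mice left out the adjusted p reached 0.21 for Il18 and 0.196 for Il1rl1. Il1a was lower by 1.60 (difference -1.60) with an exact permutation p of 0.0476, or 0.0952 after adjustment over 6 comparisons.

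The study called genes by a fold change of at least 2 with a raw p-value under 0.05. By that rule, run on the 9 tested members, Il1r2 was called between PBMC-hCG and IF, where 2.31% of all tested genes were, and between PBMC-hCG and PBMC, where 0.893% were. Il1b was called between PBMC and control, where 3.34% of all genes were. Its log2 fold change there was 1.02, and without control replicate 2 it was 0.71, below a fold of 2. None of the 9 was called by it between IF and control (4.03% of all genes), PBMC and IF (0.438%) or PBMC-hCG and control (4.74%).

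Within each mouse, the balance of the receptors was described by ratios of TPM, with no test. The ratio of decoy to signalling receptor, Il1r2 to Il1r1, had a median of 0.281 in the control, 0.419 in the IF, 0.452 in the PBMC and 0.190 in the PBMC-hCG group. The PBMC-hCG replicate 1, at 0.600, was far above the other 4 mice of its group, which lay at 0.133 to 0.230. The ratio of Il1rap to Il1r1 had medians of 0.205, 0.207, 0.231 and 0.494. Replicate 5 had the lowest ratio in the control, IF and PBMC groups, at 0.0999, 0.0948 and 0.105. In the PBMC-hCG group the lowest was replicate 1, at 0.284.

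The ratio of the antagonist to the sum of both agonists, Il1rn to Il1a plus Il1b, had medians of 0.879, 0.849, 0.877 and 0.530, with ranges of 0.551 to 2.84 in the control and 0.362 to 3.12 in the PBMC-hCG group. The ranges of all 4 groups overlapped. The ratio of Il18bp to Il18 had medians of 1.75, 1.84, 1.90 and 1.46, so the neutralizing protein's RNA exceeded that of its ligand in every mouse, the lowest ratio being 1.26.

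**Figure D4:**
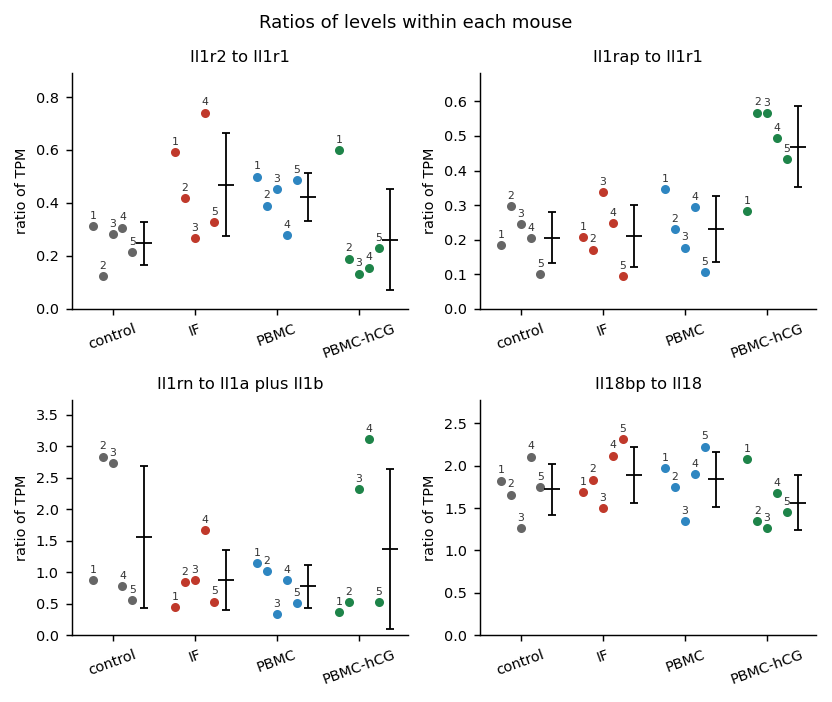
Ratios of TPM (vertical axis) within each mouse of the 4 groups (horizontal axis), with the mean and SD beside each group. The PBMC-hCG replicate 1 lay apart from the rest of its group in Il1r2 to Il1r1, at 0.600 against 0.133 to 0.230, and was the lowest of its group in Il1rap to Il1r1, at 0.284.

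Among 11 other ligands and receptors of the family, 10 were found in the table and 5 were tested. Il1rl2, the receptor of the IL-36 cytokines, rose in the IF group from 18.2 ± 2.30 to 29.1 ± 4.82 TPM (SD, n = 5 each), which is 0.66 on the log2 scale (SE 0.13, adjusted p = 0.00105), and it was higher in the PBMC group as well (log2 fold change 0.71, adjusted p = 0.000674). In the PBMC-hCG group it was 22.1 ± 3.11 TPM (SD, n = 5), with a log2 fold change against IF of -0.39 (SE 0.13, adjusted p = 0.0513). Il18r1, the ligand-binding chain of the IL-18 receptor, was called higher in the PBMC than in the control group (log2 fold change 0.62, SE 0.19, adjusted p = 0.0298) and in no other comparison. The IL-36 ligand Il1f8 and the inhibitory receptor Sigirr were called in none, with Sigirr at 20.3 ± 2.05 TPM in the control and 22.7 ± 1.93 TPM in the PBMC-hCG group (SD, n = 5 each).

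The 35 genes of the signalling chain from receptor to NF-kB were all tested. Between IF and control, 8 rose and 2 fell, which is 28.6% of the list, where 13.4% of all tested genes were called higher and 8.53% lower. The adaptor Tab2 rose (log2 fold change 0.36, SE 0.05, adjusted p = 3.15e-05), as did the inhibitory kinase homologue Irak3 (log2 fold change 0.58, SE 0.09, adjusted p = 0.000183) and the NF-kB subunit Relb (log2 fold change 0.34, SE 0.07, adjusted p = 0.00236). Irak1bp1, which binds the kinase Irak1, fell by 0.60 on the log2 scale (SE 0.12, adjusted p = 0.00198). The median over the list was 0.13 against 0.02 over all genes.

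Between PBMC-hCG and IF, 2 of these genes rose and 4 fell. That is 17.1% of the list, near the 13.6% called among all tested genes. Irak1bp1 rose by 0.50 (SE 0.12, adjusted p = 0.0287) and the ubiquitin ligase Peli2 by 0.50 (SE 0.14, adjusted p = 0.0353) on the log2 scale. The kinase Chuk, which releases NF-kB from its inhibitor, fell by 0.41 (SE 0.11, adjusted p = 0.0292) and the kinase Mapkapk2 by 0.31 (SE 0.09, adjusted p = 0.0423). The other falls were those of Nfkbia and Rela, named here after their values were seen. The median over the list was 0.01 against 0.05 over all genes, and none was called in the 7 fits in which Il1r2 and Il1rap were lost. None was called between PBMC and IF or between PBMC-hCG and PBMC.

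Of 22 genes that process or release the cytokines, 20 were tested. In the IF group 3 of the 20 rose against the control, a share near the 13.4% of all tested genes called higher. These were P2rx7, the ATP-gated channel that triggers IL-1 beta release (log2 fold change 0.67, SE 0.17, adjusted p = 0.00936), Casp4, an inflammatory caspase (0.45, SE 0.13, adjusted p = 0.0185), and Nlrp3, an inflammasome sensor listed at 0.624 to 1.09 TPM in the control and 0.897 to 1.47 TPM in the IF group. P2rx7 was highest in the PBMC-hCG group, at 39.3 ± 3.18 TPM against 20.5 ± 5.37 TPM in the control (SD, n = 5 each). Between PBMC-hCG and IF, Capn1, a calpain subunit of the kind that cleaves IL-1 alpha, rose (log2 fold change 0.33, SE 0.09, adjusted p = 0.0307), as did Nek7, a partner of Nlrp3 (0.23, SE 0.08, adjusted p = 0.048). They are 10% of the tested list, below the 13.6% called among all tested genes. Casp1, which matures IL-1 beta and IL-18, was called higher between PBMC-hCG and control (log2 fold change 0.33, SE 0.10, adjusted p = 0.0189). In that comparison 20% of the tested list was called, below the 31.8% of all tested genes.

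Of 28 genes known to be induced by IL-1, 22 were tested, and between PBMC-hCG and IF 6 fell and 0 rose. These 6 are 27.3% of the list, where 5.99% of all tested genes were called lower and 7.61% higher. The list was written with earlier results of these data known, so its share is a description and not independent support. The median over the list was -0.46 against 0.05 over all tested genes, with 15 of the 22 negative. Ptgs2, the inducible cyclooxygenase, had levels of 1.21 to 5.81 TPM in the IF and 0.432 to 1.90 TPM in the PBMC-hCG group (log2 fold change -1.87, SE 0.55, adjusted p = 0.0385). Ptges, the prostaglandin E synthase that acts after it, was 22.1 ± 5.78 and 13.5 ± 5.42 TPM (SD, n = 5 each), a log2 fold change of -0.74 (SE 0.22, adjusted p = 0.039). The NF-kB target Tnfaip2 was 40.6 ± 22.8 and 15.4 ± 4.04 TPM (log2 fold change -1.25, SE 0.30, adjusted p = 0.0287), and Lcn2, an iron-binding defence protein, was 76.4 ± 30.6 and 31.3 ± 14.9 TPM (log2 fold change -1.30, SE 0.40, adjusted p = 0.0417).

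The other falls in the list were those of the chemokine Ccl7 and the endothelial adhesion molecule Sele, named after their values were seen. These genes also respond to other signals, and Lcn2 is known as an estrogen-induced protein of the uterus. None of the list was called in the 7 fits named above, 2 were called lower without IF replicate 1, and 1 was called lower when no filter on low values was used. In the IF group against the control, Birc3 and Ptges rose and Sod2 fell. They are 13.6% of the list, below the 21.9% called among all tested genes. Ptges rose from 13.0 ± 0.689 TPM in the control (log2 fold change 0.72, SE 0.22, adjusted p = 0.0237), and both comparisons share the IF mice. None of the list was called between PBMC and IF or between PBMC-hCG and PBMC. Between PBMC-hCG and control, 3 were called higher and 4 lower. That is 31.8% of the list, the same share as among all tested genes.

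**Figure D5:**
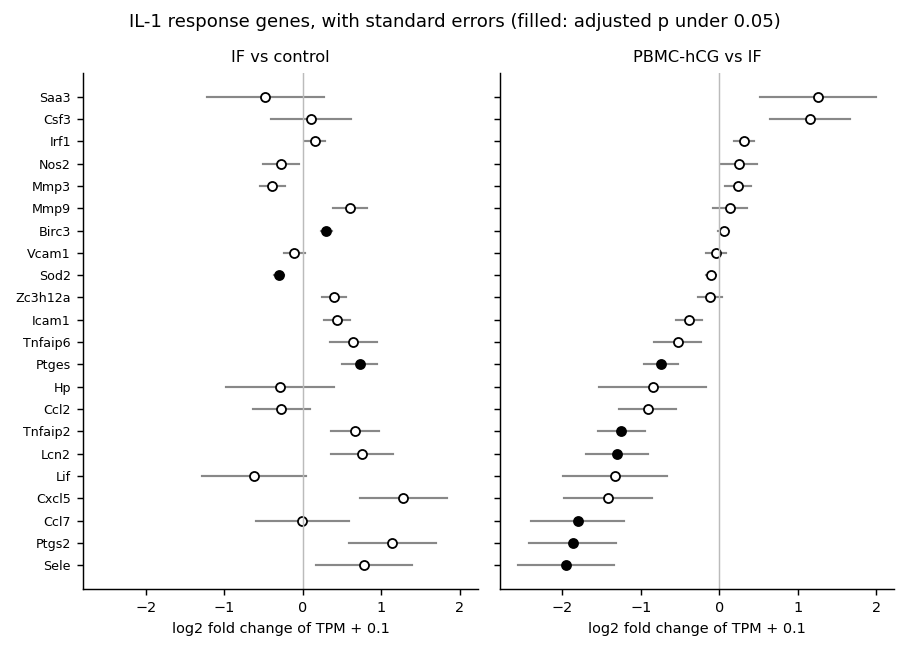
Log2 fold changes of TPM + 0.1 (horizontal axis) of the 22 tested genes known to respond to IL-1, for IF against control (left) and PBMC-hCG against IF (right), with standard errors from limma. Filled points had an adjusted p-value under 0.05. Between PBMC-hCG and IF, 6 filled points lay below 0 and none above.

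The genes whose levels followed each member most closely over the 20 mice were sought among 15771 genes with a mean of at least 1 TPM, by Pearson's r of log2 values, as a description. Il1r1 was followed by Fzd1, a Wnt receptor, at r = 0.947, and then by Nxn and the fibronectin receptor subunit Itga5. For Il1r2 the nearest were Hnrnph1, Gosr2 and Slc12a4 at r of 0.944, 0.932 and 0.927. Il1rap was followed by Wdsub1 (r = 0.942), the thyroid hormone receptor Thra (0.940) and Phactr2 (0.936). Il1a was nearest to Rin1 (0.922), Spata5 and Cdr2.

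Il1b was nearest to Crem (r = 0.852), Abhd17b and Dlc1, and Il1rn to Siglecf (0.842), a surface lectin of eosinophils, Nfe2 and P2rx1. Il18 was nearest to the prostaglandin-degrading enzyme Hpgd (0.892), Plaat3 and BC064078. Il33 was nearest to Ly6c1 (0.872), a surface antigen of endothelium and monocytes, Gimap9 and Dera, and Il1rl1 to Arhgap17 (0.830), Cbfa2t3 and Adipor1. Il18bp had the weakest partners, the complement genes C2 (0.737) and Cfb (0.705) and the pseudogene Rps15a-ps5 (0.714). With group means removed, r for the first partner of each member was between 0.673 and 0.954. The partners had been picked for a high r over these same mice, so this is no separate test of the likeness. How high the best r among 15771 genes would be by chance was not examined.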

How the data were processed

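Uterine RNA of 20 mice was measured by RNA-seq. Values deposited by the authors are TPM, made per the labels with Trimmomatic, HISAT2 and StringTie on mm10, and versions are not given in the sources used here. TPM sums to 999989 to 999999 per library, so depth is unknown. Groups and replicate numbers came from the labels, which name no batch. The 10 members, the other gene lists and the markers were chosen with earlier results of these data known.

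Values were transformed to log2(TPM + 0.1), and limma 3.58.1 (R 4.3.3, variance trend) was run on the 4 groups at once over the 18706 genes above 0 TPM in all 20 libraries. Genes were called at a Benjamini-Hochberg adjusted p-value under 0.05 over all tested genes of a comparison. Fold changes are on the log2(TPM + 0.1) scale, which understates those of low genes. The authors' edgeR test needs counts and was not used. Il1a was compared by an exact permutation test (two-sided, every arrangement of 5 against 5 mice). Fold changes of members are printed where the raw p-value was under 0.05 or the log2 fold change at least 0.4 in size. Up to 4 called genes per list and comparison, with the smallest adjusted p-values and a mean of at least 1 TPM, and the 3 genes most like each member were named. The fit was tested on simulated data. The pseudocount, filter, scaling, call rule and model were varied, and each mouse was left out in turn. Promoter windows are from RefSeq (GRCm38.p6), all 10 members matched, and overlaps are from GENCODE M21. P-values measure the spread between mice. How many separate preparations of PBMCs a group received is not stated in the sources used here, so spread between preparations was not measured.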

Additional observations from a re-analysis of the deposited data

Results flagged for a closer look

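In each member the highest and the lowest mouse of every group were compared with the rest of the group by Dixon's test, and 4 of 40 groups held a mouse that stood apart, where chance alone flags about 1 in 20. Il1a of control replicate 5 was 1.09 TPM against 0.211 to 0.446 TPM in the other controls. Il1a of PBMC replicate 5 was 3.12 TPM against 0.199 to 0.743 TPM in the other PBMC mice. Il1a of PBMC-hCG replicate 1 was 0.652 TPM against 0 to 0.0532 TPM in the other mice of its group. In the same mouse Il1r2 was 13.4 TPM against 1.76 to 3.88 TPM in the others.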

How the results depend on the processing

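Depth is unknown for TPM, so no detection limit could be set for Il1a. Between PBMC-hCG and IF, 2 members were called. The number was 1 without a filter on low values (Il1a, with Il1r2 and Il1rap lost), where 2.65% of all genes were called. It was 3 under quantile normalization (Il1r1 added), where 14.6% of all genes were. Under the study's rule of a fold of 2 and a raw p-value under 0.05 it was 1 (Il1r2), where 2.31% were. Among genes with a mean of at least 1 TPM it was 4 (Il1r1 and Il18 added), where 17.6% were. Whether the replicate numbers pair the mice was not settled. The correlations of same-numbered mice ran from -0.247 to 0.457 over the comparisons. For replicate 5 they were 0.396 between IF and control, 0.457 between PBMC and IF and 0.272 between PBMC and control. With PBMC-hCG replicate 5 they ran from -0.0896 to -0.0591. The fit with the replicate number as a block called 4 members between PBMC-hCG and IF, where 17.2% of all tested genes were called. It changed the number of members called in no other comparison. Between IF and control, 1 member (Il1rl1) was called with a mean of at least 1 TPM or without the variance trend. In these settings 25.4% and 21.3% of all tested genes were called. Between PBMC-hCG and control, 1 was called without the filter (18.1% of all genes) and 0 under the study's rule (4.74%). The study's rule called 1 member between PBMC-hCG and PBMC (Il1r2) and 1 between PBMC and control (Il1b). With single mice left out, the members called numbered 0 to 2 between IF and control, 0 to 4 between PBMC-hCG and IF and 1 to 4 between PBMC-hCG and control. The share of all tested genes called in these fits ran from 17.8% to 26.8%, from 0% to 27.1% and from 25.4% to 40.2%.

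The difference in Il1a, with single mice left out, was 0.79 to 1.37 between IF and control, -0.68 to 0.18 between PBMC and IF, -3.21 to -2.40 between PBMC-hCG and IF, -3.00 to -1.98 between PBMC-hCG and PBMC, and -2.15 to -1.29 between PBMC-hCG and control. Between PBMC and IF the sign turned without IF replicate 5 (0.05) and without PBMC replicate 4 (0.18). Between PBMC-hCG and control it was -0.36 with a pseudocount of 1 and -1.60 in limma's fit without the filter, and neither passed, and in that fit, chosen after seeing the data, it was -2.44 between PBMC-hCG and PBMC and did not pass. No printed fold change of the 9 tested members changed sign under any alternative. Of the 30 pairs of a tested member and a comparison whose fold change is not printed, 12 changed sign under some alternative and 0 were called under any. The causes were not tested.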
